A study of Mus musculus with 6 samples.

Results

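The Zdhhc palmitoyltransferases were followed in brown adipose tissue with and without a targeted deletion of Yy1, which encodes the transcription factor Yin Yang 1. The genes were selected on log2 intensities of this same contrast, YY1bKO against control, so their differences are given here as a description and carry no test. Of 10 listed genes, 8 were named on the array, namely Zdhhc2, Zdhhc3, Zdhhc4, Zdhhc5, Zdhhc6, Zdhhc7, Zdhhc9 and Zdhhc14. They held 18 of the 22626 probe sets, which are groups of short probes that report on 1 or more transcripts. Zdhhc13 and Zdhhc18 were not analysed here, because the annotation table used names no probe set for them. The study held 6 Affymetrix arrays of total RNA, 3 labelled control and 3 labelled YY1bKO. Control mice were YY1flox/flox, and YY1bKO mice were YY1flox/flox with Ucp1Cre, a recombinase whose expression is driven by the Ucp1 promoter, which is active in brown adipocytes. Both groups therefore carried the floxed Yy1 alleles. All mice were 3.5 months old, of a mixed C57BL6 and 129 background, and both groups ate high fat food for 3 months. The labels do not say whether each array is a separate animal, so the p-values measure only the spread between these arrays, which may be technical.

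Zdhhc enzymes sit in membranes of the endoplasmic reticulum, the Golgi apparatus, endosomes and the cell surface. They attach the fatty acid palmitate to cysteines of other proteins through a cysteine-rich domain with the signature that gave them their name. The bond can be cut again by thioesterases, so that palmitoylation moves proteins on and off membranes in a cycle. In adipocytes the fatty acid transporter Cd36 and the insulin-regulated glucose transporter Slc2a4 are among the proteins that carry palmitate.

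Promoter sequence was in hand for 5 of the 8 measured genes (RefSeq, build GRCm38.p6), and the 250 bases before the start site are shown for the 3 of them in which a probe set had no overlap between the groups. None was in hand for Zdhhc2, Zdhhc4 and Zdhhc14, so their promoters were not searched. Since the deleted factor binds DNA, the windows of 300 bases, from 250 before to 50 after the start, were searched on both strands for AANATGGC (GCCATNTT on the other strand), the core usually given for YY1. Of the 5 windows, that of Zdhhc3 held 1 match, and the other 4 held none. Capitals mark the match. The 3 genes shown lie on the minus strand, and each sequence is written in the direction of transcription.
Zdhhc3, chr9:123113195-123113444: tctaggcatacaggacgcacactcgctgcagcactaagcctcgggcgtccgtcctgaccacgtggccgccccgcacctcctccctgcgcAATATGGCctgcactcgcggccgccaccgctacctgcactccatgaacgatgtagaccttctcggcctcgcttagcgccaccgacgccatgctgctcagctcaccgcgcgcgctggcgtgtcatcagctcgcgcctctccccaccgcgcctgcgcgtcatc
Zdhhc6, chr19:55316037-55316286: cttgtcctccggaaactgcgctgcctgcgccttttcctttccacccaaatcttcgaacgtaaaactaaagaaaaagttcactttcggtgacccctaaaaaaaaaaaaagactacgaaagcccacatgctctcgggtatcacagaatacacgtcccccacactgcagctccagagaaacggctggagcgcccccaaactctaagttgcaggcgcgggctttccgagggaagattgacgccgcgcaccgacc
Zdhhc9, chrX:48208703-48208952: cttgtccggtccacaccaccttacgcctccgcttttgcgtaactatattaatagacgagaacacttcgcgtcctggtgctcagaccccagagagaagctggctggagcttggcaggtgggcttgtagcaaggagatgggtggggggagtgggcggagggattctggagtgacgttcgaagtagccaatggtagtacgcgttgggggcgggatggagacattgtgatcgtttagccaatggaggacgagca

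The match in Zdhhc3 began at position -161 from the start site and read AATATGGC. Over all 32851 promoter windows of the table, 6.05% held the core. The shorter motif CCAT (ATGG on the other strand), which lies within the core, was found in 83.1% of them. It occurred 3 times in the window of Zdhhc3, 5 times in that of Zdhhc9, 2 times in that of Zdhhc5, 1 time in that of Zdhhc7 and in no place in that of Zdhhc6. A match is a description of letters and not evidence of binding.

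The arrays carried the marks their labels name. The brightest Yy1 probe set had log2 intensities of 9.90, 9.62 and 9.95 in control and 8.38, 8.41 and 8.38 in YY1bKO tissue (adjusted p = 0.000854 from limma, a linear model with pooled variance, corrected for all genes tested by the Benjamini-Hochberg method). Where its probes lie relative to the floxed exons was not analysed here. Ucp1, the uncoupling protein of brown fat, gave 13.92 ± 0.06 in control and 13.78 ± 0.08 in YY1bKO tissue (SD, n = 3) and did not pass (limma adjusted p = 0.292). Brown adipocyte markers, 14 of them measured, averaged 11.41 to 11.68 per array in control and 11.56 to 11.63 in YY1bKO tissue, and none was dim. Of these 14, 3 passed the test as higher, Ppargc1a (1.09), Elovl3 (1.14) and Zic1 (0.90, log2 differences), and none as lower. The shares over all genes were 10.2% higher and 8.09% lower. Control replicate 2 stood apart from the other arrays on the second principal component, which held 36.0% of the variance over genes. Its 12 skeletal muscle markers averaged 13.79 on the log2 scale, against 11.43 and 11.13 in the other control arrays and 12.27 to 12.70 in YY1bKO arrays. Values without it stand beside those of Zdhhc2, Zdhhc3, Zdhhc14 and some of the other genes.

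Zdhhc2 held the largest difference of the family, and all 3 of its probe sets lay lower in YY1bKO tissue. Zdhhc2 works at the plasma membrane and on recycling endosomes, and the tetraspanins Cd9 and Cd151 and the membrane protein Ckap4 are among its known substrates. In the brightest probe set (1452654_at) the log2 intensities were 8.74, 8.14 and 8.90 in control and 5.84, 6.11 and 6.31 in YY1bKO arrays. Every YY1bKO array lay below every control array, and control replicate 2 was the lowest of its group. The means were 8.59 ± 0.40 and 6.09 ± 0.24 (SD, n = 3 each), a difference of -2.51 ± 0.22 (SE) or 5.68-fold. The YY1bKO arrays lay below 6.48, the median level of all probe sets, so this fold rests partly on low values. The probe set 1452656_at gave 7.37, 6.59 and 7.47 in control and 4.07, 3.98 and 4.08 in YY1bKO arrays. Its difference was -3.10 ± 0.22 (SE). No fold is read from it, because the YY1bKO arrays lie near the low end of the scale, where the values were not shown to be above background. The last one, 1452655_at, gave 6.59, 5.94 and 6.42 in control and 3.85, 3.78 and 3.99 in YY1bKO arrays, a difference of -2.44 ± 0.17 (SE). Control replicate 2 was the lowest control array in all 3 probe sets, and without it the differences were -2.73, -3.38 and -2.63.

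The latter pair of Zdhhc2 probe sets was dim, which here means that its average did not exceed 6.48, the median of all probe sets. Dim probe sets can respond less than in proportion to the transcript, which was not tested here. On a log2(value + 16) scale the differences of this pair were -2.28 and -1.65, and that of the brightest probe set was -2.26. The added 16 shrinks differences of low values by arithmetic, so these values say nothing about probe response. In tissue RNA, fewer cells of a type and less RNA per cell cannot be told apart. Endothelial markers moved with the groups, with a mean over 7 measured markers of 8.70 to 9.04 per control array and 8.13 to 8.27 per YY1bKO array. Of these 7, 4 passed the test as lower and none as higher, beside 8.09% and 10.2% of all genes. Of 6 measured smooth muscle markers, 2 passed as lower, Pdgfrb (-0.77) and Rgs5 (-0.53), and none as higher. Cnn1 did not pass but lay higher without overlap (0.49). The smooth muscle mean overlapped, at 8.44 to 8.92 in control and 8.66 to 8.92 in YY1bKO arrays. Of 4 measured red cell markers, none passed the test, and their mean was 5.31 to 5.90 in control and 5.15 to 5.25 in YY1bKO arrays. The part of these cells in the Zdhhc2 values was not tested. The skeletal muscle markers, highest in control replicate 2, overlapped between the groups.

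**Figure D1:**
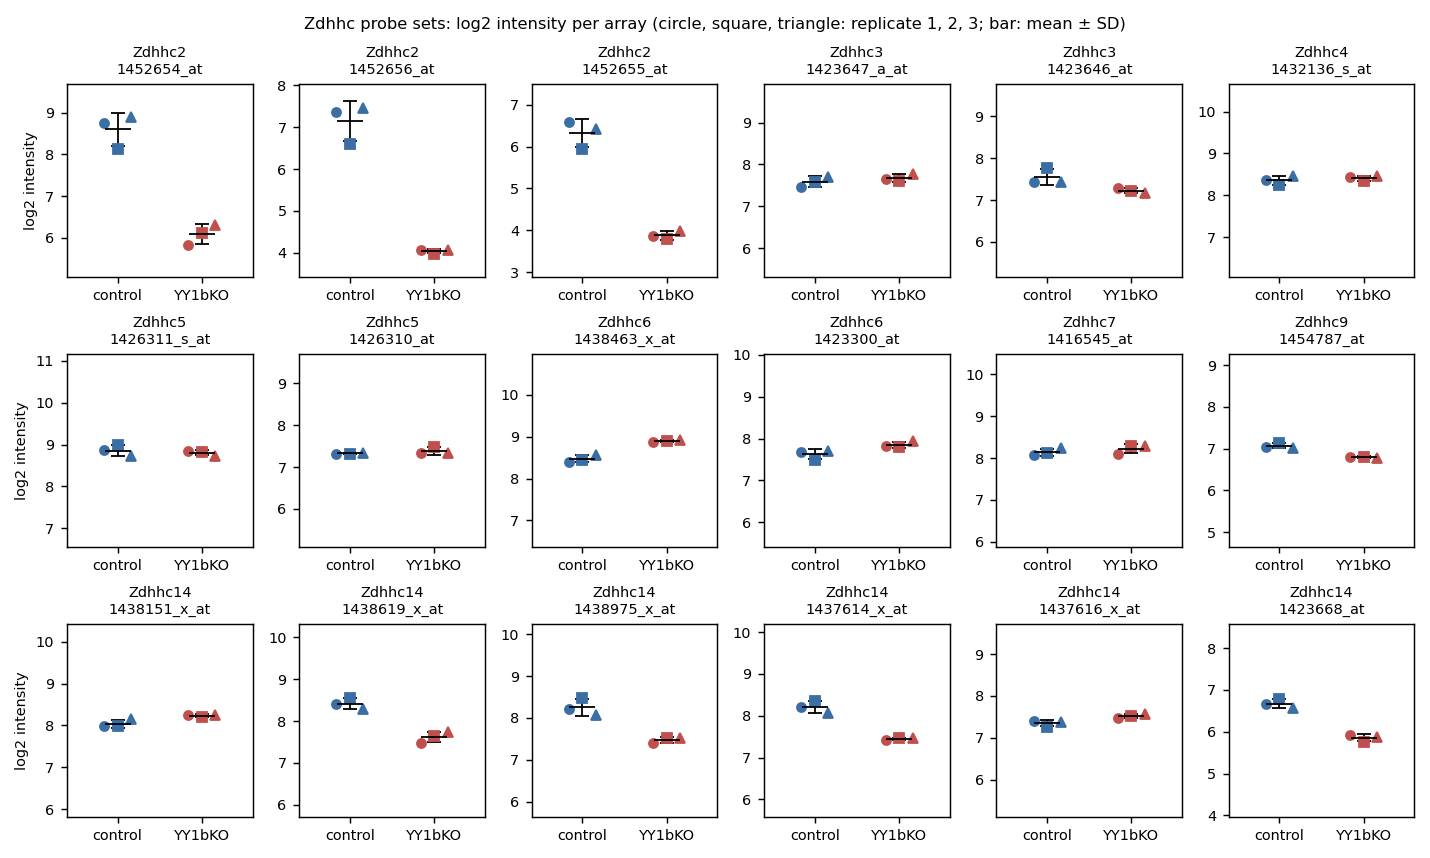
Log2 intensity (vertical axis, every panel spanning the same number of log2 units) of each of the 18 Zdhhc probe sets on the 3 control arrays (blue) and the 3 YY1bKO arrays (red), with bars at mean ± SD. The 3 Zdhhc2 panels show the widest gap between groups, while both groups share 1 range in the panels of Zdhhc4, Zdhhc5 and Zdhhc7.

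Zdhhc14 was read by 6 probe sets, and these went in opposite directions. Zdhhc14 is an enzyme known for palmitoylating the scaffold protein PSD93 in neurons. In 4 probe sets YY1bKO arrays were lower, with differences of -0.75 to -0.81 on the log2 scale, or 1.69-fold to 1.76-fold. The probe set 1438619_x_at gave 8.41, 8.54 and 8.30 in control and 7.48, 7.63 and 7.73 in YY1bKO arrays (difference -0.80 ± 0.10, SE). The dim 1423668_at, whose name carries no suffix for shared probes, gave 6.67, 6.78 and 6.56 in control and 5.93, 5.76 and 5.87 in YY1bKO arrays (-0.81 ± 0.09, SE). The other 2 behaved alike. In 1438975_x_at the values were 8.23, 8.47 and 8.06 in control and 7.40, 7.51 and 7.53 in YY1bKO arrays (-0.77 ± 0.12, SE), and in 1437614_x_at they were 8.21, 8.35 and 8.05 in control and 7.42, 7.47 and 7.46 in YY1bKO arrays (-0.75 ± 0.09, SE). In all 4 the groups did not overlap, and control replicate 2 was the highest array, the reverse of its place in Zdhhc2. Without it the differences were -0.74 in 1438619_x_at, -0.76 in 1423668_at, -0.66 in 1438975_x_at and -0.68 in 1437614_x_at.

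The remaining pair of Zdhhc14 probe sets was slightly higher in YY1bKO tissue. The probe set 1438151_x_at, the brightest of the gene, gave 7.99, 7.98 and 8.15 in control and 8.26, 8.19 and 8.25 in YY1bKO arrays (0.19 ± 0.08, SE). In 1437616_x_at the values were 7.40, 7.26 and 7.37 in control and 7.48, 7.53 and 7.56 in YY1bKO arrays (0.18 ± 0.08, SE). These groups did not overlap either, but the gaps were small. Affymetrix names ending in _x_at mark probe sets with probes that may also match other transcripts, and 5 of the 6 carry it. Because the probe sets disagree in sign, a single value for Zdhhc14 depends on which is taken. The brightest one gave 0.19 and the mean over all 6 gave -0.46. No probe sequences were used here, so which transcripts each reads was not tested.

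**Figure D2:**
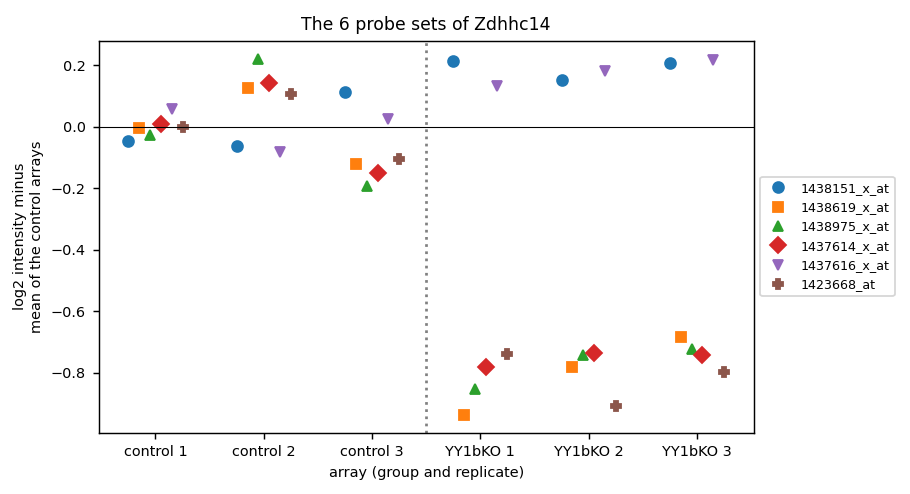
Log2 intensity of the 6 Zdhhc14 probe sets on each array, relative to the mean of the 3 control arrays of the same probe set (vertical axis), with 1 marker shape and colour per probe set. On the YY1bKO arrays 4 probe sets lie far below 0 and 2 lie above it.

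Zdhhc6, an enzyme of the endoplasmic reticulum that palmitoylates the chaperone calnexin, was the measured gene of the 8 that was higher in all its probe sets without overlap. The probe set 1438463_x_at gave 8.40, 8.45 and 8.57 in control and 8.87, 8.89 and 8.93 in YY1bKO arrays. The difference was 0.42 ± 0.08 (SE), or 1.34-fold. The name ends in _x_at, so some of its probes may match other transcripts. The probe set 1423300_at gave 7.68, 7.50 and 7.71 in control and 7.82, 7.80 and 7.93 in YY1bKO arrays, a difference of 0.22 ± 0.09 (SE), again with every YY1bKO array above every control array. 

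Zdhhc9, which acts on Ras proteins together with its partner Golga7, had 1 probe set. It gave 7.05, 7.13 and 7.02 in control and 6.81, 6.81 and 6.78 in YY1bKO arrays. The YY1bKO arrays were lower without overlap, by -0.27 ± 0.07 (SE), or 1.20-fold. Zdhhc3, a Golgi enzyme, was split between its probe sets. In 1423646_at the values were 7.44, 7.77 and 7.44 in control and 7.28, 7.23 and 7.16 in YY1bKO arrays (-0.33 ± 0.11, SE). Without control replicate 2, which was the highest array there, the difference was -0.22. The brighter 1423647_a_at overlapped, with 7.46, 7.59 and 7.71 in control and 7.66, 7.60 and 7.77 in YY1bKO arrays (0.09 ± 0.10, SE).

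Zdhhc4, Zdhhc5 and Zdhhc7 differed by less than 0.1 on the log2 scale in each of their 4 probe sets, and the groups overlapped in each. Zdhhc4 and Zdhhc5 palmitoylate Cd36, and Zdhhc7 palmitoylates Slc2a4. Zdhhc4 gave 8.36, 8.24 and 8.46 in control and 8.43, 8.33 and 8.45 in YY1bKO arrays, a difference of 0.05 ± 0.09 (SE). Zdhhc7 gave 8.06, 8.13 and 8.23 in control and 8.10, 8.28 and 8.30 in YY1bKO arrays, a difference of 0.08 ± 0.09 (SE). Zdhhc5 was close to level in both probe sets, at -0.05 ± 0.09 in 1426311_s_at and 0.06 ± 0.08 in 1426310_at (SE). In the former it gave 8.86, 8.99 and 8.73 in control and 8.86, 8.83 and 8.73 in YY1bKO arrays, and in the latter 7.31, 7.32 and 7.35 in control and 7.34, 7.48 and 7.34 in YY1bKO arrays. Without control replicate 2 the sign turned in Zdhhc4 (-0.0041) and in 1426311_s_at of Zdhhc5 (0.014). These errors say how precisely the difference was read and do not show that the levels were equal.

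**Figure D3:**
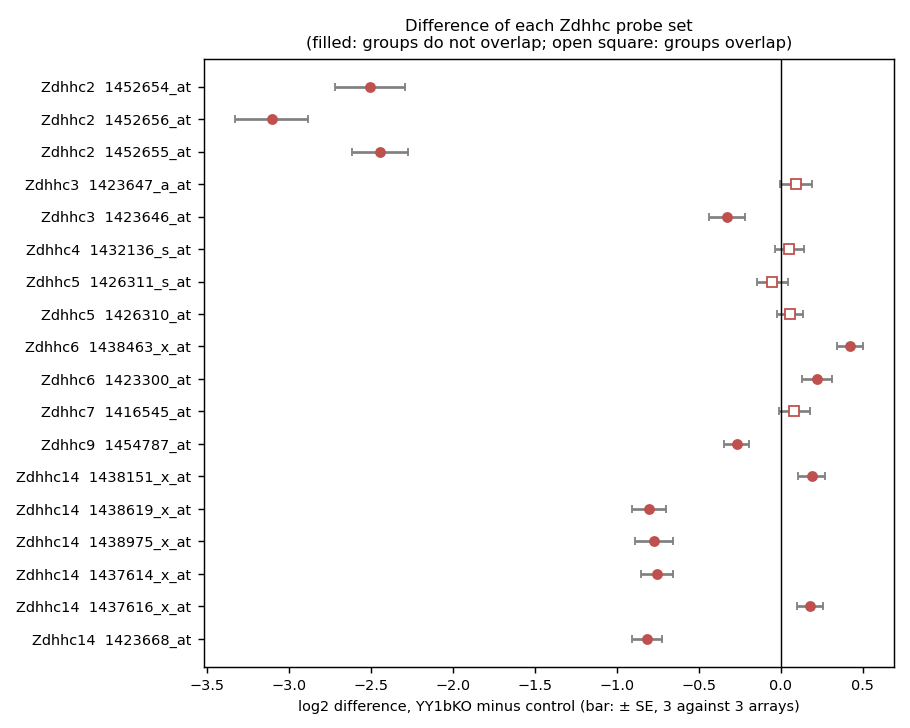
Difference between the group means on the log2 scale, YY1bKO minus control (horizontal axis), with its SE, for each of the 18 Zdhhc probe sets. Zdhhc2 lies between -3.10 and -2.44, 4 Zdhhc14 probe sets lie between -0.81 and -0.75, and the other 11 lie between -0.33 and 0.42, filled where the groups did not overlap.

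Counted over the family, 7 of the 18 probe sets passed limma's threshold (an adjusted p under 0.05) as lower, those of Zdhhc2 and 4 of Zdhhc14, and the Zdhhc6 probe set 1438463_x_at passed as higher. Over all 22626 probe sets, 7.16% were called lower and 8.83% higher. The groups did not overlap in 13 of the 18, 9 lower and 4 higher, and over all probe sets this held for 36.2%. Since these genes were picked with the contrast in view, nothing is read from the counts. The median difference was -0.16 over the 18 and 0.03 over all probe sets. Zdhhc2 and Zdhhc14 supply 3 and 6 of the 18, so this median rests largely on these genes. With the brightest probe set of each gene, the median over the 8 genes was 0.07, against 0.04 over all genes. The higher call of Zdhhc6 was lost when control replicate 1 or a YY1bKO array was left out, while the 7 lower calls were kept when any array was left out. Zdhhc9 lay near the threshold. It was not called among probe sets and was called lower in the fit with 1 probe set per gene, and that call was lost when any array was left out.

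Of 14 further Zdhhc genes looked for, 5 were measured, and Zdhhc12 rose. Zdhhc12, an enzyme that palmitoylates the synaptic scaffold gephyrin, gave 7.25, 7.41 and 7.42 in control and 7.79, 7.67 and 7.77 in YY1bKO arrays. All YY1bKO arrays were higher, with a log2 fold change of 0.38 ± 0.08 (SE, limma adjusted p = 0.0242). That call did not hold without control replicate 1 (limma adjusted p = 0.0771), nor when YY1bKO replicate 1, 2 or 3 was removed (0.0919, 0.0604 and 0.0906). Zdhhc20 gave 6.14, 5.55 and 5.70 in control and 6.28, 6.19 and 6.04 in YY1bKO arrays and did not pass (0.37 ± 0.16, adjusted p = 0.169), though it passed without control replicate 1 (0.55). Without control replicate 2 it was 0.25. Zdhhc1, Zdhhc8 and Zdhhc16 did not pass either, at -0.10, 0.06 and -0.21, and their groups overlapped. Zdhhc16 was -0.09 without control replicate 2, its highest array. Over all 12393 genes, 10.2% were called higher and 8.09% lower.

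Of 4 accessory proteins of the family, 2 were measured, and neither passed the test. Golga7, the partner of Zdhhc9, was level at 10.54 ± 0.03 in control and 10.53 ± 0.03 in YY1bKO tissue (SD, n = 3), with a log2 difference of -0.01 ± 0.07 (SE). Selenok, the selenoprotein that works with Zdhhc6, gave 10.43 ± 0.03 and 10.55 ± 0.04 (SD, n = 3), a difference of 0.12 ± 0.07 (SE, limma adjusted p = 0.290). Its groups did not overlap, as in 36.2% of all probe sets.

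Among the thioesterases that take palmitate off, 8 were measured, 1 fell and 1 rose, beside 8.09% lower and 10.2% higher over all genes. Ppt1, the lysosomal palmitoyl-protein thioesterase, gave 8.82, 8.49 and 8.83 in control and 7.29, 7.41 and 7.37 in YY1bKO arrays. The groups did not overlap, and the log2 fold change was -1.36 ± 0.11 (SE, limma adjusted p = 0.0012), or 2.56-fold lower. A second Ppt1 probe set gave -1.24, and the call was kept when any array was left out. Abhd10, a depalmitoylase of mitochondria, gave 7.83, 7.68 and 7.83 in control and 8.24, 8.19 and 8.22 in YY1bKO arrays, a rise of 0.44 ± 0.08 (SE, adjusted p = 0.0124). Its dimmer probe set gave 0.15, and removing YY1bKO replicate 1 or 3 ended the call (limma adjusted p = 0.0547 and 0.0522).

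The other thioesterases did not pass over the 6 arrays. Lyplal1, a relative of the acyl-protein thioesterases, gave 8.63, 8.24 and 9.34 in control and 8.08, 7.76 and 7.67 in YY1bKO arrays (-0.90 ± 0.27, SE, limma adjusted p = 0.0686). It passed without control replicate 2 (-1.15, adjusted p = 0.0123), the array highest in muscle markers. Without control replicate 3, its highest array, it was -0.60 and did not pass (limma adjusted p = 0.0793). Abhd17c, a membrane depalmitoylase, gave -0.31 ± 0.16. It passed without control replicate 2 (-0.45) and was -0.19 without YY1bKO replicate 1 (limma adjusted p = 0.497). The acyl-protein thioesterases Lypla1 and Lypla2 gave -0.06 ± 0.07 and 0.22 ± 0.10, Ppt2 gave -0.17 ± 0.09, and Abhd17a gave -0.04 ± 0.09 (SE). The list's median was -0.12, against 0.04 over all genes.

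**Figure D4:**
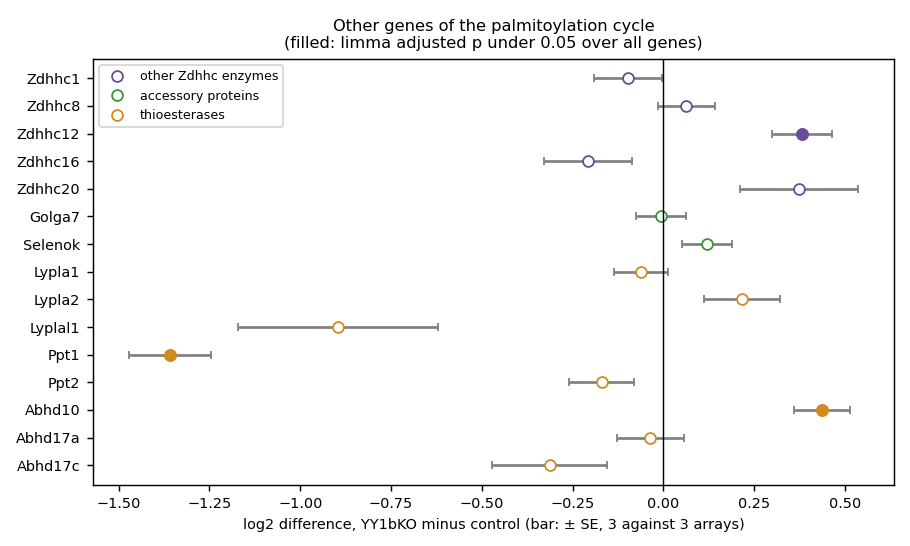
Log2 difference, YY1bKO minus control, with its SE (horizontal axis), for the further Zdhhc genes, the accessory proteins and the thioesterases, 1 probe set per gene. Filled points passed limma at an adjusted p under 0.05 over all genes, which are Zdhhc12, Ppt1 and Abhd10.

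Of 28 measured proteins known to carry palmitate, 2 were called higher and 3 lower, with a median of -0.05 against 0.04 over all genes. The shares called over all genes were 10.2% higher and 8.09% lower. Slc2a4, the glucose transporter that Zdhhc7 acts on, gave 10.49, 10.95 and 10.79 in control and 11.82, 11.76 and 11.62 in YY1bKO arrays. It rose by 0.99 ± 0.13 (SE, limma adjusted p = 0.0050). Flot2, a raft scaffold protein palmitoylated by Zdhhc5, gave 10.30, 10.20 and 10.29 in control and 9.72, 9.64 and 9.76 in YY1bKO arrays, and fell by 0.56 ± 0.08 (SE, adjusted p = 0.00546). The G protein genes Gnas and Gna12 fell by 0.44 ± 0.08 and 0.42 ± 0.09 (SE, adjusted p = 0.0111 and 0.0229). The Gna12 call did not hold when control replicate 1 or a YY1bKO array was removed, nor when its probe sets were averaged (-0.24, limma adjusted p = 0.189).

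Canx, the calnexin palmitoylated by Zdhhc6, was the second gene called higher (0.29 ± 0.08, SE, limma adjusted p = 0.0451), and its call was lost when any array was left out. It and the following genes were named after their values were seen, for their link to single enzymes. The Zdhhc2 substrates did not pass. Cd151 gave -0.24 ± 0.07 (adjusted p = 0.0706), with no overlap between the groups, Ckap4 gave -0.36 ± 0.17 and Cd9 gave -0.19 ± 0.24 (SE). Cd36, the shared substrate of Zdhhc4 and Zdhhc5, gave 13.41 ± 0.12 in control and 13.24 ± 0.04 in YY1bKO tissue (SD, n = 3), a difference of -0.17 ± 0.09 (SE, adjusted p = 0.242). Transcript levels say nothing of how much palmitate these proteins carried.

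Acyl-CoA synthetases make the palmitoyl-CoA that Zdhhc enzymes use. Of 5 measured supply genes, Acsl5, a synthetase for long-chain fatty acids, passed as higher. It gave 11.04, 11.11 and 11.84 in control and 12.70, 12.36 and 12.50 in YY1bKO arrays, a rise of 1.19 ± 0.22 (SE, limma adjusted p = 0.0143). The groups did not overlap, and removing YY1bKO replicate 1 or 3 ended the call (0.0608 and 0.0551). Fasn, the fatty acid synthase, gave 0.20 ± 0.16, the acyl-CoA binding protein Dbi gave -0.07 ± 0.08 and Acsl4 gave 0.06 ± 0.08 (SE), and none of them passed. Fasn moved to 0.04 when control replicate 2 was removed and to 0.36 when control replicate 3 was.

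The 5 genes outside the family whose levels over the 6 arrays were most like those of the brightest Zdhhc2 probe set were Idh3b, Poglut1, Phyh, Nipsnap1 and Gatb. Pearson's r lay between 0.9977 and 0.9983 over 6 arrays. The arrays form 2 groups, so r mostly reflects the gap between them, and 450 of 12385 genes, or 3.63%, reached 0.95. What these 5 shared with Zdhhc2 within the control group was a lower value in control replicate 2. Within the YY1bKO group they shared a lowest value in YY1bKO replicate 1. Nipsnap1, a mitochondrial protein, gave 8.47, 7.77 and 8.41 in control and 5.50, 5.90 and 5.91 in YY1bKO arrays, a gap close in size to that of Zdhhc2. Idh3b, a subunit of isocitrate dehydrogenase, differed by -0.41, and the peroxisomal enzyme gene Phyh by -1.01.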

How the data were processed

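Total RNA of brown adipose tissue was hybridised to 6 Affymetrix arrays, 3 per group. The authors deposited 1 processed intensity per probe set and array, with RMA (robust multi-array average, which summarises probes after background correction and normalization) named in the submitters' processing notes. No version or setting of it was found in the labels (not given in the sources used here). The method can compress the differences of dim probe sets. The median log2 value per array was 6.46 to 6.48. The deposited intensities are linear, from 4.91 to 21219, so log2 was taken without a pseudocount before any fit.

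Of 22690 probe sets 64 Affymetrix controls were removed. Symbols came from the platform annotation (20380 probe sets with 1 symbol, 691 with several, 1555 unnamed here). Limma 3.58.1 in R 4.3.3 (lmFit, eBayes, group as sole term, two-sided, Benjamini-Hochberg, adjusted p under 0.05) was fitted over all 22626 probe sets and over 12393 genes, each by its probe set of highest mean. SE is the moderated standard error. The fits were tested on simulated data. Every adjusted p in the text is from the fit over genes.

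Members and lists were chosen with earlier results of these data known. Named were all members, the measured further Zdhhc, accessory and thioesterase genes, up to 4 genes by smallest p in each longer list, Yy1 and Ucp1, and the 5 genes most correlated with Zdhhc2. Exceptions are marked. Alternatives tried were a filter on dim values, the mean over probe sets, quantile normalization, median centring, array weights, limma's trend and robust options, the replicate block, a fold of at least 1.5, log2(value + 16), adjustment over named probe sets and leaving out each array. The labels name no batch. Precision is limited by the number of arrays. Protein features planned for the sequence description were not analysed here.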

Additional observations from a re-analysis of the deposited data

How the results depend on the processing

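Calls of the selected probe sets come from refits of the same 6 arrays that they were chosen on, so they are a description and no support. The 3 Zdhhc2 and 4 lower Zdhhc14 probe sets kept their lower calls under every alternative that retained them. The filter on dim values removed 3 of them and added Zdhhc9, leaving 5 called lower, and array weights, median centring or log2(value + 16) gave 8 by adding Zdhhc9. The count of higher Zdhhc probe sets was 1, 0 with a fold of at least 1.5, and 0 to 1 when each array was left out. Of the 18 differences, 3 moved by more than the spread between arrays, all under log2(value + 16), Zdhhc14 1423668_at to -0.67 among them, and none turned sign among those called.

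Over all genes 1267 were called higher and 1003 lower, 469 and 562 with a fold of at least 1.5, and 547 to 1661 and 466 to 1439 when each array was left out. Over probe sets the counts were 1997 and 1619, 751 and 917 with that fold, and 808 to 2607 and 699 to 2473 when each array was left out. Array weights gave 2622 lower probe sets. Among the fits that left out 1 array, the lowest counts came without YY1bKO replicate 1 or 2 and the highest without control replicate 2. Leaving out control replicate 1 or YY1bKO replicate 3 also moved each count by over 1.5 times.

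The replicate numbers of the titles gave no evidence of pairs, since deviations of arrays with the same number correlated at -0.25, 0.11 and 0.26, and not every array correlated best with its own number. With the replicate block, 671 genes were higher and 639 lower, and 1108 probe sets higher.
The block kept the 7 lower and 1 higher calls among the 18 probe sets. It lost the calls of Zdhhc12 (limma adjusted p = 0.0765), Gnas (0.0501), Gna12 (0.0731), Canx (0.114), Rce1 (0.0858) and, in the fit over genes, Zdhhc9. The cause of these shifts was not tested. The labels name no batch to compare. The Zdhhc2 probe sets 1452656_at and 1452655_at were dim, and how this affects the size of their differences was not tested.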

Other observations

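Of 14 measured genes of other lipid attachments to proteins, 1 was called higher and 1 lower, and in 7 the groups did not overlap. Over all genes 10.2% were called higher and 8.09% lower, and the groups did not overlap in 36.2% of all probe sets, so nothing is read from these counts. Fnta, the shared subunit of the farnesyl and type I geranylgeranyl transferases, fell by 0.47 ± 0.08 (SE, limma adjusted p = 0.00945), and Rce1, the protease that trims prenylated proteins, rose by 0.37 ± 0.08 (SE, adjusted p = 0.0255). The Rce1 call did not hold when control replicate 1 or a YY1bKO array was removed. The Rab geranylgeranyl transferase subunit gene Rabggta gave -0.24 ± 0.08 and the Rab escort protein gene Chm gave -0.30 ± 0.11 (SE), and neither passed (limma adjusted p = 0.0772 and 0.117). The myristoyltransferase gene Nmt1 gave -0.03 ± 0.13 and Nmt2 gave -0.58 ± 0.22 (SE, adjusted p = 0.123), chosen after their values were seen. The median of the list was 0.01, against 0.04 over all genes.

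Of the 6 measured genes next to Zdhhc2 on its chromosome, 3 on either side, 1 was called. Msr1, a macrophage scavenger receptor, differed by -0.33 ± 0.08 (SE, limma adjusted p = 0.0361), and the other 5, Fgf20, Tusc3, Cnot7, Vps37a and Mtmr7, did not pass and lay between -0.24 and 0.32. Next to Zdhhc6, Acsl5 (1.19) and Tectb (0.73) passed as higher, and next to Zdhhc14, Tmem242 (-0.60) and Serac1 (-0.37) passed as lower. Beside Zdhhc5, Selenoh (0.57) and Med19 (0.44) passed as higher and Tmx2 (-0.67) as lower. Rab33a (0.83) beside Zdhhc9, and Emc8 (0.56) and 6430548M08Rik (0.41) beside Zdhhc7, passed as higher. Fscn1 (-0.82) beside Zdhhc4 passed as lower, and no neighbour of Zdhhc3 was called. Over the neighbours of all 8 genes, 7 of 48 were called higher and 5 lower, beside 10.2% and 8.09% over all genes. The neighbours were looked at after the Zdhhc values had been seen, and shared regulation was not tested.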
